A study of Mus musculus with 10 samples.

Results

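The genes described here are 10 genes of vascular growth factor, angiopoietin and hypoxia signalling, namely *Vegfa*, *Vegfb*, *Vegfc*, *Pgf*, *Kdr*, *Flt1*, *Nrp1*, *Angpt2*, *Tek* and *Hif1a*. They were selected by name from the 54532 genes of an RNA-seq table of mouse retinas. All 10 were in the table, and all 10 passed the filter of at least 0.1 FPKM (fragments per kilobase of gene length, scaled to the size of the library) in at least 5 retinas. BALB/c mice, albino and sensitive to light, were 2 months old when the retinas were taken, with no engineered allele or drug in either group. Mice were dark-adapted for 12 hr and then kept for 1 day either under normal light of 200 lux (NL, 5 retinas) or under constant light of 15000 lux, a light damage model (LD, 5 retinas). The question put to the comparison is which transcripts of the neural retina differ after 1 day of damaging light. The labels call the tissue retina and the study calls it neural retina, and nothing in the labels gives the sex of the animals.

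VEGF ligands (*Vegfa*, *Vegfb*, *Vegfc*, *Pgf*) are secreted proteins that bind receptor tyrosine kinases on vascular endothelial cells. KDR, also called VEGFR2, carries most of the growth signal in endothelium, FLT1, or VEGFR1, binds ligand tightly and signals weakly, and NRP1 is a co-receptor for VEGF and for semaphorins. In the retina, *Vegfa* is made chiefly by glia and neurons, and *Kdr* and *Nrp1* are also transcribed in neurons, so that neither is a marker of endothelium alone there. Angiopoietins act through TIE2, encoded by *Tek*: ANGPT1 activates the receptor and keeps vessels quiet, and ANGPT2 can oppose it. HIF1A is the subunit of a transcription factor that is degraded when oxygen is plentiful, mainly at the level of its protein, and *Vegfa* is among the genes it switches on.

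The upstream sequences of both VEGF receptor genes are shown because *Kdr* and *Flt1* lie on the same chromosome, bind the same ligand and differed in how far LD and NL retinas lay apart. Each is the 250 bases before the start site in RefSeq (GRCm38.p6), read 5′ to 3′ on the minus strand, with capitals at the core of the HIF binding motif. The core was searched on both strands in either of its usual forms. The first is ACGTG, which overlaps an E-box where a C precedes it. The second is GCGTG, which reads CACGC on the opposite strand.
*Kdr* (chr5:75978456-75978705, minus strand): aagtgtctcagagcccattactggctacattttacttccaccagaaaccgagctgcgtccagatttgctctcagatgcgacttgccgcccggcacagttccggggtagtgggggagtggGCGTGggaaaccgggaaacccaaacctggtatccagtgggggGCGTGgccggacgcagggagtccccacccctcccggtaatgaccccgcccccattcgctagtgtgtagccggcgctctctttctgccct
*Flt1* (chr5:147726012-147726261, minus strand): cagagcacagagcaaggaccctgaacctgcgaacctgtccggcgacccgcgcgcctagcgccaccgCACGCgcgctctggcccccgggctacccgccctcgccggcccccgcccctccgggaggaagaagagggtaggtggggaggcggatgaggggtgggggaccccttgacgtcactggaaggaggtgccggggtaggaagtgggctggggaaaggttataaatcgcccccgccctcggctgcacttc
In *Kdr* the core begins 131 and 89 bases before the start, both times as GCGTG, and in *Flt1* it begins 184 bases before it, as CACGC. Their windows hold 61.6% and 70.4% of G and C. Of the 10 genes, 9 have at least 1 such window in the table used (all but *Angpt2*), 11 windows in all, and 7 of the 11 windows, in 7 genes, hold the core. Among all 32851 windows of the same length, 38.6% hold it. The windows with a match in *Vegfa* and *Pgf* lie largely or wholly in annotated exons (218 and 250 of 250 bases). The *Vegfa* window outside exons holds no core. These matches describe letters only and are no measure of binding.

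NL retinas held between 21343389 and 26832535 reads and LD retinas between 18965090 and 23378090, which gave each of the 10 transcripts at least 15 reads in every retina. *Gnat1*, the rod transducin gene, was at 2874 ± 260 FPKM under NL (SD, n = 5), and *Rpe65*, a pigment epithelium gene, was at 12.9 ± 5.97 FPKM. Several retinas stood close together. The counts of LD-4 and LD-6, of NL-5 and NL-7 and of LD-1 and LD-7 differed by a chi-square per gene of 2.52, 2.71 and 3.41, against 10.9 or more for every other pair within a group, so each pair differed by more than counting noise, and whether its retinas share a source is not given by the labels. Reads on *Xist* were present in NL-4, NL-8, LD-4 and LD-6 (159 to 194 FPKM) and at 0.118 FPKM or less in the other 6 retinas. Because 2 retinas of each group carried it, *Xist* was balanced between NL and LD, but LD-4 and LD-6 were at once a close pair and both *Xist* retinas of LD, so each of the 10 genes is also given without them.

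After 1 day of LD, *Pgf*, *Kdr* and *Nrp1* rose and the other 7 genes did not pass the test (adjusted p under 0.01, limma on log2(FPKM + 0.1), Benjamini-Hochberg adjustment over the 24508 genes tested). *Pgf*, a ligand of FLT1, rose by 1.27 on the log2 scale, and the receptor *Kdr* and the co-receptor *Nrp1* rose by 0.70 and 0.72. Thus 3 of 10 genes rose, whereas by this threshold 9.30% of all genes tested rose, 7.74% fell and 17.0% changed in either direction. In the same 3 genes the values of NL and LD did not overlap, as in 22.4% of all genes tested, and LD was above NL in 11.8% of all genes. Requiring in addition a change above 2-fold, as the study does, leaves 1 of 10, *Pgf*, against 6.51% of all genes in either direction, 4.13% upward and 2.37% downward. At an adjusted p under 0.05 the count was still 3, against 27.8% of all genes. The median log2 fold change of the 10 genes was 0.20, with 8 above 0 and 2 below, and that of all genes tested was -0.01. Fold changes on the log2(FPKM + 0.1) scale understate changes of genes as low as *Pgf*. In whole tissue, more cells of a type cannot be told apart from more RNA per cell.

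**Figure D1:**
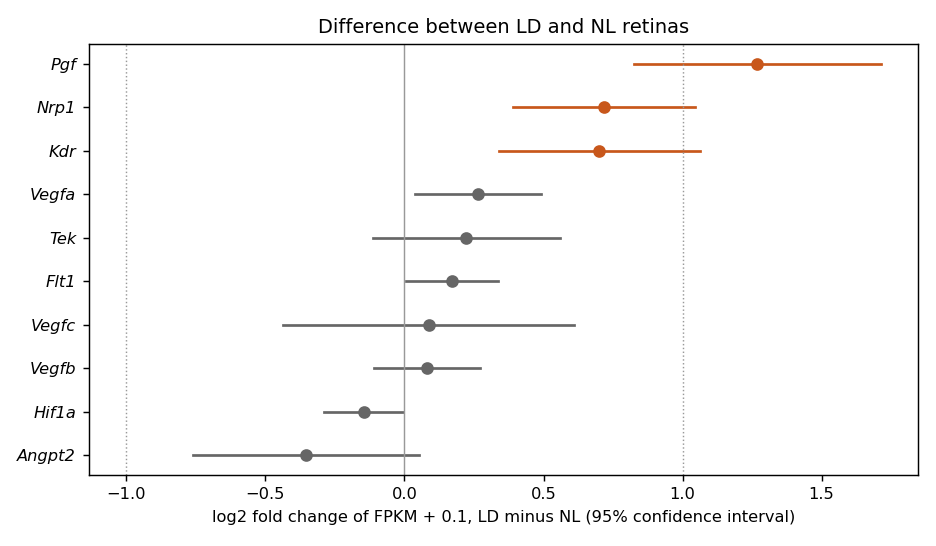
Log2 fold change of FPKM + 0.1, LD minus NL, for each of the 10 genes on the horizontal axis, with its 95% confidence interval from limma (n = 5 retinas per group). Orange marks the 3 genes with an adjusted p under 0.01 and dotted lines mark 2-fold. *Pgf* (1.27) lies past the 2-fold line with an interval of 0.82 to 1.71, and the intervals of *Vegfb*, *Vegfc*, *Angpt2* and *Tek* include 0.

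Under NL, the level per gene length ran from *Hif1a* at 98.7 ± 7.16 FPKM through *Vegfa* (46.4), *Kdr* (30.0), *Vegfb* (20.7), *Flt1* (7.21) and *Nrp1* (1.22) to a group of low transcripts, *Tek* (0.829), *Angpt2* (0.814) and *Vegfc* (0.712), with *Pgf* lowest at 0.313 ± 0.0805 FPKM (means, SD for the first and last, n = 5). The ranges of neighbours in this order were apart except for *Tek* with *Angpt2* and *Angpt2* with *Vegfc*. Under LD the order down to *Nrp1* was the same, but *Kdr* (49.8 FPKM) overlapped *Vegfa* (55.5 FPKM), and *Vegfa* was the higher of both in 3 of 5 retinas. The 4 lowest genes of LD, *Tek*, *Pgf*, *Vegfc* and *Angpt2*, lay between means of 0.989 and 0.627 FPKM and each overlapped its neighbour, so *Pgf* was no longer set apart at the bottom.

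**Figure D2:**
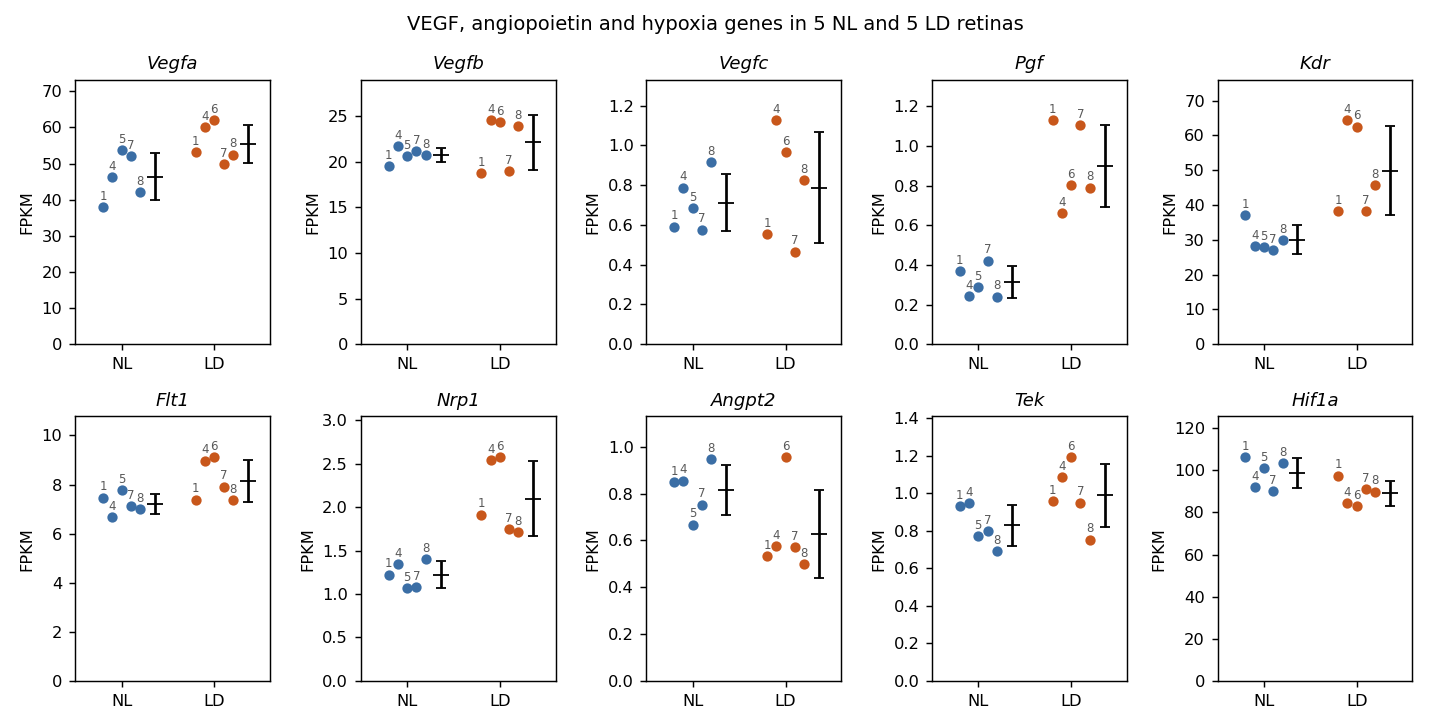
FPKM of each of the 10 genes in every retina, one panel per gene with its own vertical axis from 0, NL in blue and LD in orange, small numbers giving the replicate and bars the mean and SD of 5 retinas. For *Pgf*, *Kdr* and *Nrp1* every LD retina is above all 5 NL retinas, in *Kdr* narrowly, where the highest NL retina (37.1 FPKM) is just below the lowest LD retina (38.1 FPKM).

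*Vegfa* (ENSMUSG00000023951, chromosome 17, 46016993 to 46032369, minus strand), the ligand of both VEGF receptors, was the most abundant ligand. It was at 37.9, 46.3, 53.7, 52.1 and 42.2 FPKM in NL-1, NL-4, NL-5, NL-7 and NL-8, the order kept below for all NL values. In LD-1, LD-4, LD-6, LD-7 and LD-8, likewise kept below, it was at 53.1, 60.0, 62.0, 49.8 and 52.5 FPKM. The groups overlapped, with LD-4 and LD-6 above every NL retina and the remaining LD retinas level with the top of NL. Means of 46.4 ± 6.64 and 55.5 ± 5.25 FPKM (SD, 5 retinas each) differed by 0.26 on the log2 scale (standard error 0.10, 95% interval 0.04 to 0.49), which did not pass the test (limma adjusted p = 0.0802, two-sided exact permutation p = 0.0635). The interval reaches a 1.40-fold difference. With LD-4 and LD-6 left out, the log2 difference was 0.17 (adjusted p = 0.344), and in the 6 retinas without *Xist* it was 0.13 (adjusted p = 0.581).

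*Vegfb* (ENSMUSG00000024962, chromosome 19, 6982473 to 6987651, minus strand), a FLT1 ligand linked to survival of vessels and neurons more than to their growth, was held between 19.6 and 21.7 FPKM in the 5 NL retinas (19.6, 21.7, 20.6, 21.1 and 20.7). The LD retinas split around that range, at 18.7, 24.6, 24.4, 18.9 and 23.9 FPKM, with LD-1 and LD-7 below all of NL and LD-4, LD-6 and LD-8 above it. The log2 fold change was 0.08 (standard error 0.09, interval -0.11 to 0.27, limma adjusted p = 0.539), and the spread of LD (SD 2.99 FPKM) was wider than that of NL (SD 0.793 FPKM). Its log2 fold change was -0.024 without LD-4 and LD-6.

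*Vegfc* (ENSMUSG00000031520, chromosome 8, 54077606 to 54187096, plus strand), the ligand of lymphatic VEGFR3, was low in every retina. It was at 0.592, 0.788, 0.684, 0.577 and 0.918 FPKM under NL and at 0.553, 1.13, 0.967, 0.466 and 0.826 FPKM under LD, which is 26 to 58 reads per retina. LD-4 and LD-6 were again highest and LD-1 and LD-7 lowest, on either side of the NL range. The log2 difference was 0.09 (standard error 0.24, interval -0.44 to 0.61, limma adjusted p = 0.828), within the spread between retinas, and without LD-4 and LD-6 it was -0.20.

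*Pgf* (ENSMUSG00000004791, chromosome 12, 85166635 to 85177790, minus strand) encodes placental growth factor, a ligand of FLT1 and NRP1 that does not bind KDR. It was at 0.370, 0.243, 0.288, 0.422 and 0.240 FPKM under NL (15 to 26 reads). Under LD it was at 1.13, 0.663, 0.801, 1.10 and 0.789 FPKM (39 to 80 reads). The groups did not overlap, and LD-1 and LD-7, the lowest of LD for *Vegfb* and *Vegfc*, were here the highest. The means were 0.313 ± 0.0805 and 0.897 ± 0.208 FPKM, a ratio of 2.87, and the log2 fold change was 1.27 (standard error 0.20, interval 0.82 to 1.71, limma adjusted p = 8.91e-04). The exact permutation p was 0.00794, the smallest that 5 against 5 retinas can give. *Pgf* stayed a minor transcript beside *Vegfa*: its FPKM was 0.00684 of that of *Vegfa* under NL and 0.0165 under LD (exact permutation p = 0.00794, a ratio chosen after the values were seen). Without both LD-4 and LD-6 the log2 fold change was 1.43 (adjusted p = 0.00249). In the 6 retinas without *Xist* it was 1.26 (adjusted p = 0.0154), and with a pseudocount of 1 it was 0.53, past the test but not past 2-fold.

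*Kdr* (ENSMUSG00000062960, chromosome 5, 75932827 to 75978458, minus strand), the main signalling receptor of VEGF, was at 37.1, 28.1, 27.9, 27.1 and 30.0 FPKM under NL. In the LD retinas it was at 38.1, 64.4, 62.5, 38.3 and 45.8 FPKM. The groups did not overlap, but only just: NL-1 was well above the other NL retinas and LD-1 and LD-7 were barely above NL-1, while LD-4 and LD-6 were far above the rest. The means were 30.0 ± 4.07 and 49.8 ± 12.8 FPKM, a ratio of 1.66, and differed by 0.70 on the log2 scale (standard error 0.16, interval 0.34 to 1.06, limma adjusted p = 0.00876, exact permutation p = 0.00794). This call was close to its threshold. It was lost, at adjusted p values of 0.0165 to 0.0241, when NL-4, NL-5, NL-7, NL-8, LD-4, LD-6 or LD-8 was left out, and without both LD-4 and LD-6 the log2 fold change was 0.44 (adjusted p = 0.0221). In the 6 retinas without *Xist* it was 0.42 (adjusted p = 0.0944).

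*Flt1* (ENSMUSG00000029648, chromosome 5, 147561604 to 147726011, minus strand), the other VEGF receptor, was at 7.47, 6.68, 7.76, 7.13 and 7.0 FPKM under NL and at 7.38, 8.97, 9.13, 7.91 and 7.37 FPKM under LD. LD-4, LD-6 and LD-7 were above all of NL and the remaining LD retinas were inside its range. The log2 fold change was 0.17 (standard error 0.07, interval 0.01 to 0.34), below that of *Kdr*, and did not pass the test (limma adjusted p = 0.118, exact permutation p = 0.0556). Since both receptors were measured in each retina, their balance can be read within it: the ratio of *Kdr* to *Flt1* FPKM was 4.96, 4.21, 3.60, 3.80 and 4.29 under NL and 5.17, 7.18, 6.85, 4.84 and 6.21 under LD. Its mean went from 4.17 ± 0.526 to 6.05 ± 1.02 (two-sided exact permutation p = 0.0159, chosen after the values were seen), with LD-7 inside the NL range. Without LD-4 and LD-6 the log2 fold change of *Flt1* was 0.07 (adjusted p = 0.503), and in the 6 retinas without *Xist* it was 0.02 (adjusted p = 0.874). The ratio in the remaining 3 LD retinas was 5.41 ± 0.717, no longer past 0.05 (exact permutation p = 0.0714, where 5 against 3 retinas cannot go below 0.0357).

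*Nrp1* (ENSMUSG00000025810, chromosome 8, 128358604 to 128503363, plus strand), the VEGF and semaphorin co-receptor, was at 1.22, 1.35, 1.07, 1.08 and 1.40 FPKM under NL (212 to 354 reads) and at 1.92, 2.54, 2.58, 1.75 and 1.71 FPKM under LD (373 to 565 reads). LD was above NL throughout, with LD-4 and LD-6 again the highest. The means were 1.22 ± 0.151 and 2.10 ± 0.428 FPKM, a ratio of 1.71 and a log2 fold change of 0.72 (standard error 0.15, interval 0.39 to 1.05, limma adjusted p = 0.00448, exact permutation p = 0.00794). The call was lost, at adjusted p values of 0.0110 to 0.0133, when NL-1, NL-5, NL-7, LD-4 or LD-6 was left out. Without both LD-4 and LD-6 the log2 fold change was 0.52 (adjusted p = 0.0245), and among the 6 retinas without *Xist* it was 0.63 (adjusted p = 0.0250).

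*Angpt2* (ENSMUSG00000031465, chromosome 8, 18690263 to 18741562, minus strand), the antagonist of the angiopoietin pair, was at 0.849, 0.855, 0.667, 0.753 and 0.945 FPKM under NL and at 0.533, 0.575, 0.957, 0.571 and 0.499 FPKM under LD (41 to 90 reads over all 10 retinas). Of the LD retinas, 4 were below every NL retina and LD-6 was above them all, even though its close partner LD-4 was among the low ones. The log2 fold change was -0.35 (standard error 0.18, interval -0.76 to 0.05, limma adjusted p = 0.185, exact permutation p = 0.0714), and without LD-6 it was -0.50 (adjusted p = 0.0394), still short of the threshold. Without both LD-4 and LD-6 it was -0.52 (adjusted p = 0.0573). The gene lies inside *Mcph1*, which is transcribed from the opposite strand and was at 1.12 and 1.11 FPKM under NL and LD. Whether strand was used in counting is not given in the sources used here, so reads from the shared stretch may not be told apart.

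*Tek* (ENSMUSG00000006386, chromosome 4, 94739289 to 94874976, plus strand), the receptor of both angiopoietins, was at 0.933, 0.949, 0.774, 0.800 and 0.691 FPKM under NL and at 0.957, 1.09, 1.20, 0.950 and 0.753 FPKM under LD. LD-4 and LD-6 were above every NL retina, LD-1 and LD-7 only narrowly so, and LD-8 was near the bottom of NL. The log2 fold change was 0.22 (standard error 0.15, interval -0.11 to 0.56, limma adjusted p = 0.317), and 0.09 without LD-4 and LD-6 (adjusted p = 0.772).

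Among the 7 other genes of the VEGF and angiopoietin system in the table, 1 rose, 0 fell and 6 did not pass. By the same threshold 9.30% of all genes tested rose and 7.74% fell, the shares to set beside this list and those below. Of the 7, the gene that rose was *Angpt1*, the activating ligand of TEK. It was at 0.261, 0.190, 0.341, 0.362 and 0.320 FPKM under NL and at 0.685, 0.578, 0.687, 0.557 and 0.535 FPKM under LD, without overlap. Its log2 fold change was 0.86 (standard error 0.18, limma adjusted p = 0.00434), and the call was lost, at adjusted p values of 0.0103 to 0.0135, without NL-1, LD-1, LD-4 or LD-6. Without both LD-4 and LD-6 it was 0.82 (adjusted p = 0.0289). *Tie1*, the orphan relative of *Tek*, had a log2 fold change of 0.78 (0.334 and 0.681 FPKM, adjusted p = 0.0586). The lymphatic receptor *Flt4* (0.14), the co-receptor *Nrp2* (0.07), the endothelial phosphatase *Ptprb* (-0.10), *Angpt4* (-0.29) and *Vegfd* (-0.32) had adjusted p values of 0.515 to 0.825.

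With *Angpt1* higher and *Angpt2* not, the ratio of *Angpt2* to *Angpt1* FPKM within a retina was 3.26, 4.50, 1.96, 2.08 and 2.95 under NL and 0.778, 0.994, 1.39, 1.03 and 0.933 under LD. Every LD retina, LD-6 included, was below every NL retina, and the mean went from 2.95 ± 1.03 to 1.02 ± 0.227 (SD, n = 5 each, two-sided exact permutation p = 0.00794). This ratio was chosen after the values were seen, and both genes were counted from few reads. Leaving out LD-4 and LD-6 gave an LD mean of 0.912 ± 0.125 (exact permutation p = 0.0357, the smallest possible).

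**Figure D3:**
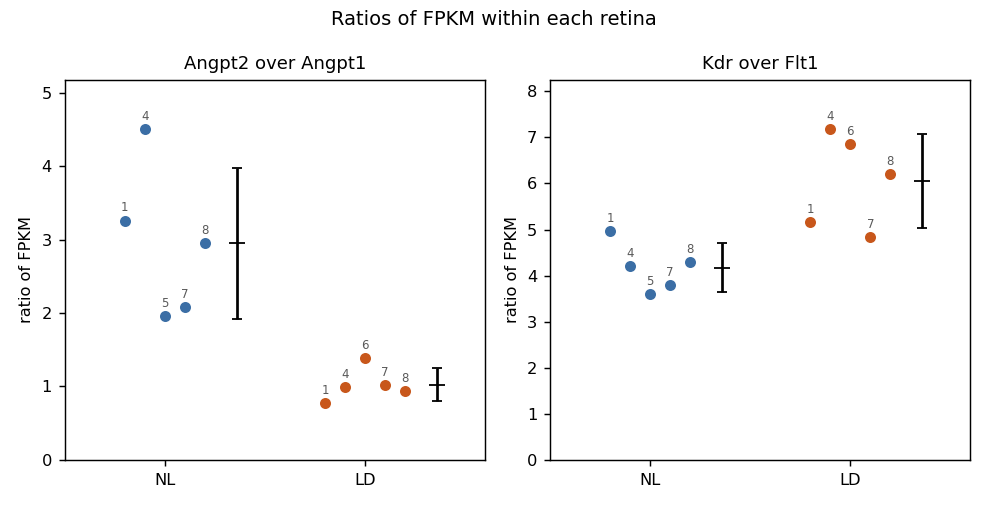
Ratio of *Angpt2* to *Angpt1* FPKM (left) and of *Kdr* to *Flt1* FPKM (right) within each retina, on linear axes from 0, NL in blue and LD in orange, with the replicate number beside each point and bars for the mean and SD of 5 retinas. The left ratio is 1.96 or more in every NL retina and 1.39 or less in every LD retina, and the right ratio is 3.60 to 4.96 under NL and 4.84 to 7.18 under LD.

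*Hif1a* (ENSMUSG00000021109, chromosome 12, 73901375 to 73947530, plus strand), the oxygen-regulated subunit, was the most abundant of the 10 transcripts. It was at 106, 92.1, 101, 90.1 and 103 FPKM under NL and at 97.5, 84.3, 82.9, 90.9 and 89.8 FPKM under LD. The groups overlapped, with LD-4, LD-6 and LD-8 below all of NL. The means were 98.7 ± 7.16 and 89.1 ± 5.81 FPKM, a log2 fold change of -0.15 (standard error 0.06, limma adjusted p = 0.122, exact permutation p = 0.0476), which did not pass the test. It was -0.09 without LD-4 and LD-6 (adjusted p = 0.426). This value moved with the scaling: without the authors' factor per retina it was -0.01, where the median of all genes was 0.11. An antisense gene, *Gm15283*, overlaps *Hif1a* and was at 4.78 and 4.26 FPKM under NL and LD. A protein-coding gene on the same strand, *Gm49321*, also overlaps it and was at 0 FPKM in every retina.

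Of 10 genes of the other HIF subunits and of oxygen sensing, 2 rose and 4 fell, with a median log2 fold change of -0.07. *Epas1*, which encodes HIF2A, the form prominent in endothelium and glia, fell from 35.6 ± 4.48 to 21.6 ± 2.56 FPKM (-0.71, limma adjusted p = 3.83e-04). *Hif3a*, a subunit that can dampen HIF activity, fell by 0.89 on the log2 scale (adjusted p = 0.00373), and *Cited2*, an inhibitor of the HIF coactivator, fell by 0.56 (adjusted p = 5.63e-04). *Egln3*, an oxygen-sensing hydroxylase that is itself switched on by HIF, rose from 1.72 ± 0.516 to 3.70 ± 0.916 FPKM (1.07, adjusted p = 0.00612), although LD-7 at 2.26 FPKM was inside the NL range. The number that rose was 1 rather than 2 without NL-1, NL-4, NL-8, LD-1, LD-4, LD-6 or LD-8.

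Of 28 tested genes that HIF is known to switch on, 3 rose, 7 fell and 18 did not pass, with a median log2 fold change of -0.06. Of all genes tested, 9.30% rose and 7.74% fell, so 3 risen of 28 is near the share of all genes. The 7 fallen of 28 are above that share. Summed FPKM of the list was 1500 to 1894 under NL and 1264 to 1466 under LD, without overlap, a sum weighted to its most abundant genes. *Egln3*, which rose, was counted with the oxygen sensing genes and not here. The list did not move one way. Those with the largest changes all fell: *Vldlr*, a lipoprotein receptor (-0.93, limma adjusted p = 7.65e-05), *Hilpda*, which promotes lipid storage (-0.87, adjusted p = 1.50e-06), *Hk2*, the hexokinase of photoreceptors (-0.77, adjusted p = 5.53e-04), and *Ddit4*, an inhibitor of mTORC1 (-0.72, adjusted p = 7.59e-04). The 3 that rose, named after their values were seen, were *Bhlhe40*, a transcriptional repressor (0.70), *Cxcl12*, a chemokine (0.55), and the neuronal glucose transporter *Slc2a3* (0.45). The glucose transporter *Slc2a1* was at 52.2 and 49.8 FPKM (-0.07, adjusted p = 0.538) and was also named after its value was seen. The falls stood beside a fall of all 10 rod markers, with summed rod FPKM of 10023 to 12211 under NL and 1565 to 3061 under LD. What part the rods had in them was not tested.

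Downstream of the receptors, 6 of 12 genes of proximal VEGF receptor signalling rose and 0 fell, with a median of 0.26. The largest changes were in *Sphk1*, a sphingosine kinase (0.70, limma adjusted p = 0.00727), *Shb*, an adaptor that binds phosphorylated KDR (0.64, adjusted p = 0.00205), the kinase *Src* (0.57, adjusted p = 0.00138) and the protein kinase C gene *Prkcb* (0.41, adjusted p = 6.18e-04). These genes act in many cell types and under many receptors. Without LD-4 and LD-6 the count was 3.

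Of 10 tested genes that angiogenic tip cells express, 5 rose and 1 fell, with a median of 0.59. *Plaur*, the urokinase receptor, had the largest rise (0.0888 to 1.08 FPKM, log2 fold change 2.65, limma adjusted p = 3.21e-05), followed by *Igfbp3* (1.09), the pericyte-recruiting ligand *Pdgfb* (1.06) and the adhesion molecule *Mcam* (0.97). *Apln*, the tip cell peptide apelin, went the other way, from 0.654 ± 0.151 to 0.115 ± 0.0590 FPKM (-1.83, adjusted p = 2.33e-04, named after its value was seen). Both *Plaur* and *Apln* were near the floor in 1 group, *Plaur* with 2 to 9 reads per NL retina and *Apln* with 4 to 12 per LD retina. Each passed the filter of 0.1 FPKM in 5 retinas only through the group where it was higher, so the size of these 2 changes is uncertain. The number that rose was 3 when NL-1, NL-5, NL-7, NL-8, LD-4, LD-6 or LD-7 was left out. None of these genes is limited to tip cells, and several are transcribed by glia or leukocytes.

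Endothelial markers moved in part with the receptors. All 19 tested had a log2 fold change above 0, with a median of 0.55, but 3 rose: *Cd34* (1.05, limma adjusted p = 0.00221), *Ly6c1* (1.00, adjusted p = 0.00334) and *Egfl7* (0.70, adjusted p = 0.00943). Only 1 rose without NL-7 and 1 without LD-4 and LD-6. Among junction genes, *Pecam1* did not pass (0.925 and 1.01 FPKM, 0.06, adjusted p = 0.900). Nor did *Cdh5* (0.615 and 0.876 FPKM, 0.40, adjusted p = 0.320). *Cldn5* (5.58 and 9.62 FPKM, 0.67, adjusted p = 0.154) and *Esam* (0.14, adjusted p = 0.555) did not pass either. *Vwf* (1.03), *Ramp2* (0.75) and *Robo4* (0.72) had larger log2 fold changes than *Kdr* without passing (adjusted p of 0.0431 to 0.0682). These junction genes, *Vwf*, *Ramp2* and *Robo4* were named after their values were seen. The summed FPKM of the list was 22.6 to 30.4 under NL and 27.2 to 53.3 under LD, with the highest sums in LD-4 (48.2) and LD-6 (53.3), the retinas with the highest *Kdr*.

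How *Kdr* compared with endothelial genes depended on the gene it was set against. The log2 fold changes were known beforehand: *Kdr* 0.70, *Pecam1* 0.06, *Cdh5* 0.40 and *Tie1* 0.78, with a median of 0.55 for the 19 endothelial markers. They fix the direction of each ratio, so the p values below do not test whether *Kdr* differed beyond endothelium. *Tie1* is not among the 19 markers. The ratio of *Kdr* to *Pecam1* went from 33.9 ± 7.95 to 52.4 ± 10.3 (two-sided exact permutation p = 0.0238), that of *Kdr* to *Cdh5* from 50.9 ± 12.2 to 63.0 ± 27.9 (p = 0.452) and that of *Kdr* to *Tie1* from 94.4 ± 25.8 to 79.5 ± 21.3 (p = 0.302), all 3 chosen after the values were seen. Without LD-4 and LD-6 the LD means were 58.2 ± 7.66 (p = 0.0357), 69.3 ± 37.6 (p = 0.464) and 90.5 ± 21.2 (p = 0.786), by the same exact permutation test. *Kdr* at 30.0 FPKM was also far more abundant than *Pecam1* at 0.925 FPKM under NL. LD-8 had the third highest *Kdr* (45.8 FPKM) with the lowest endothelial sum of LD (27.2), inside the NL range.

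**Figure D4:**
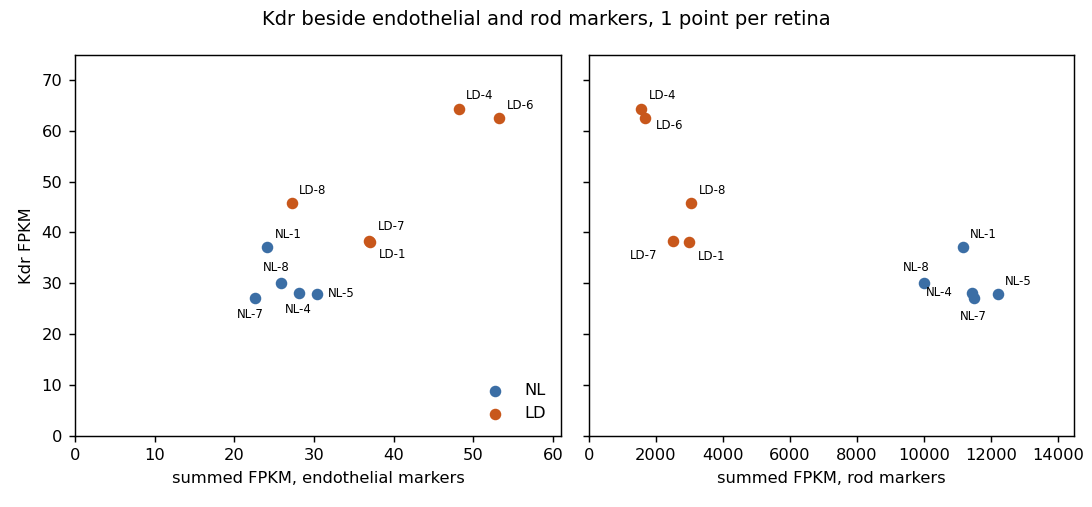
*Kdr* FPKM against the summed FPKM of 19 endothelial markers (left) and of 10 rod markers (right), one point per retina, NL in blue and LD in orange, linear axes from 0. LD-4 and LD-6 combine the highest *Kdr* (64.4 and 62.5 FPKM) with the highest endothelial sums and the lowest rod sums (1565 and 1674), and LD-8 has more *Kdr* than any NL retina at an endothelial sum of 27.2.

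Markers of some other cell types also differed between the groups. Markers of microglia and macrophages rose in 7 of 10 genes (median 1.16), with summed FPKM of 21.7 to 36.7 under NL and 49.8 to 117 under LD. Of the 7, *Ptprc* (0.0864 and 0.273 FPKM) passed the filter only through LD, so the size of its change is uncertain. *P2ry12* was lower after LD without passing (2.03 and 1.32 FPKM, -0.74, limma adjusted p = 0.122). Both were named after their values were seen. Of 4 astrocyte markers 1 rose, *Gfap*, also a gene of reactive glia (3.20 on the log2 scale), and the median of the 4 was 0.22. *Pax2* (0.36), *Pdgfra* (0.09) and *S100b* (-0.47) did not pass. Müller glia markers were mixed, with 3 up (*Vim* 2.02, *Clu* 1.06, *Sox9* 0.79) and 1 down (*Glul*, glutamine synthetase, -2.09). Of the 10 pericyte and smooth muscle, 10 pigment epithelium and 4 red cell markers tested, 0 passed in either direction, with medians of 0.22, 0.11 and -0.63. What part any of these cell types had in the values of *Pgf*, *Kdr* or *Nrp1* was not tested.

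**Figure D5:**
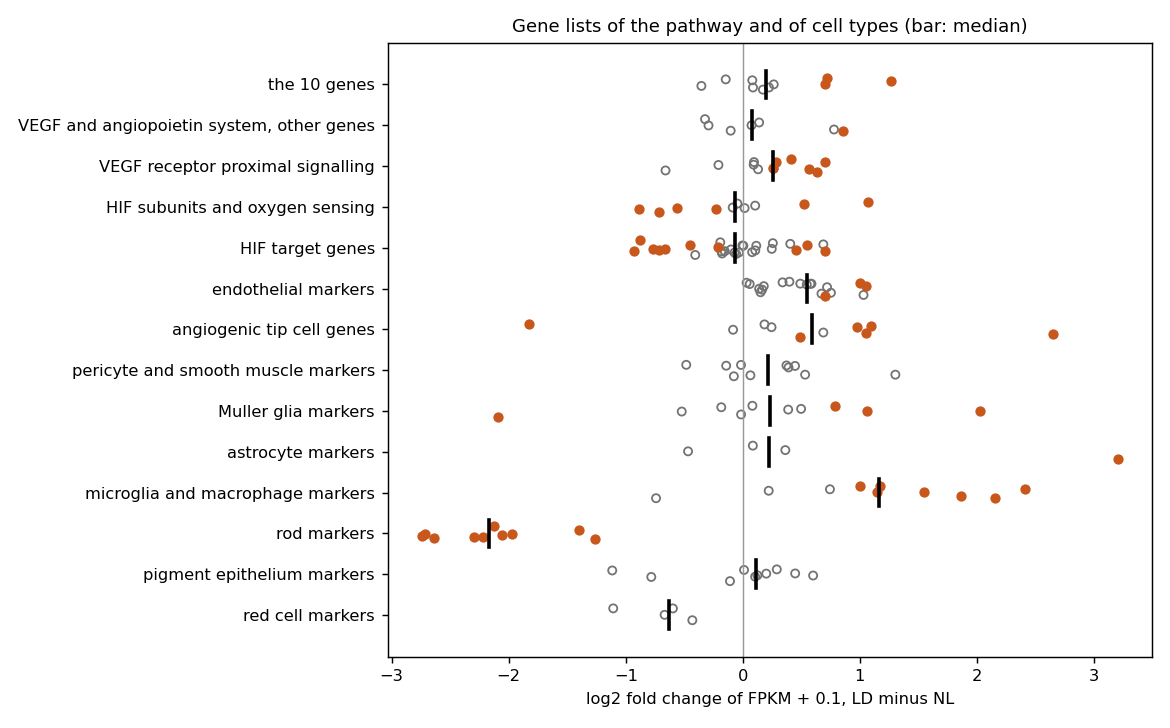
Log2 fold change of FPKM + 0.1, LD minus NL, for every tested gene of each list, one row per list and the 10 genes on top, filled orange circles for genes with an adjusted p under 0.01 (limma), open circles for the rest, and a black bar at the median. The endothelial row lies wholly above 0 (median 0.55), the HIF target row straddles 0 (median -0.06), and the rod row lies wholly below it (median -2.17).

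From retina to retina within a group, the 10 genes did not vary as one block. After the mean of its group was taken from each value, Pearson's r over the 10 retinas was 0.74 for *Kdr* with *Flt1*, 0.75 for *Kdr* with *Nrp1* and 0.86 for *Vegfb* with *Vegfc*. *Pgf* was at -0.92 with *Vegfc*, -0.75 with *Vegfb* and -0.23 with *Vegfa*, and *Hif1a* ran against *Vegfa* at -0.67. With the endothelial marker *Pecam1*, r was 0.93 for *Flt1* and 0.71 for *Kdr*. Among 12428 protein-coding genes at a mean of at least 1 FPKM, the closest to *Vegfa* were *Tpi1*, *Slc2a3* and *Adam15* (each 0.96). The closest to *Kdr* were *Cdsn* (0.99), *Cnn3* and *Cul7* (each 0.98), to *Nrp1* *Ncan* (0.98), *5031439G07Rik* and *Spx* (each 0.97), to *Flt1* *Rflnb* (0.98), *Greb1* (0.96) and *Pik3cd* (0.95), and to *Pgf* *Zfp418* (0.94), *Gm9958* (0.92) and *Anks3* (0.91). For *Vegfb* they included *Kcnc2* (0.99) and *Neurog2* (0.98), for *Vegfc* they were *Efnb2* (0.98), *Apba1* and *Slc18a3* (each 0.97), and for *Hif1a* *Gtf3c3* (0.98), *Zfp111* and *Dcps* (each 0.96). *Angpt2* and *Tek* had *Ints4* (0.95) and *Cyp2j9* (0.93) as closest genes. The closest genes are the extremes of 12428 values, and each of the 10 genes had one at 0.93 or more. With 3 close pairs among the 10 retinas these values describe the retinas at hand, since the retinas share their libraries and depth across genes.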

How the data were processed

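RNA of 10 retinas was sequenced. Per the study's methods, a company sequenced paired reads and normalized the data, and the authors deposited 1 table of FPKM for all retinas, with gene positions on GRCm38 (53499 of 54532 genes, and all 10 described here, have the same position in GENCODE release M21). The submitters' processing notes list Bowtie2 2.0.6, TopHat2 2.0.9 and the build mm8, which differs from the table's positions. The counting program and its use of strand are not given in the sources used here. FPKM steps gave whole reads for 100% of values (tolerance 0.01 reads), and these served for depth and limma-voom. The authors' scaling held a factor per retina of 0.951 to 0.968 in NL and 1.04 to 1.07 in LD. Precision at low genes is limited by reads, which cover counting error only.

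Genes at 0.1 FPKM or more in 5 or more retinas were tested as log2(FPKM + 0.1) in limma 3.58.1 (R 4.3.3) with an intensity trend, two-sided, Benjamini-Hochberg adjusted over all 24508 genes. Single values were compared by exact permutation over retinas (scipy 1.17.1). The test script was checked on simulated data, where it recovered 148 of 199 changed genes with 2 false calls. The simulated retinas were independent and the changes larger than those of *Kdr* or *Nrp1*. That check therefore does not bear on close pairs or on changes of that size. Genes named were all 10, all other VEGF and angiopoietin genes, from each further list at most 4 (largest change at adjusted p under 0.01 and 1 FPKM or more in a group, or else highest mean) and the 3 nearest genes by r, except for genes that the text gives as named after their values were seen. Some genes that this rule names are not reported here. The 10 genes and the lists were chosen with earlier results of these data known. Alternatives varied the pseudocount, filter, scaling, test and retinas. Those on *Xist*, on LD-4 with LD-6 (ratios included), and on the lists and *Angpt1* were chosen after seeing the data. The study describes its samples as biological replicates. Retinas with the same number in NL and LD correlated at -0.0893 to 0.0656 after removal of group means, so numbers were not taken as pairs. Value columns of no known sample numbered 0.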

Additional observations from a re-analysis of the deposited data

Results flagged for a closer look

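*Angpt2* in LD-6 stood far from the other LD retinas, at 0.957 FPKM against 0.499 to 0.575 FPKM, a gap of 0.835 of the whole LD range. In all, 22 sets of 5 retinas were examined in this way and 1 stood out. Chance alone gives about 1 in 20 such sets, or 1.1 here.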

How the results depend on the processing

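The results were recomputed under 25 alternatives (24 where a gene was lost at a filter of 1 FPKM, as were *Pgf*, *Vegfc*, *Angpt2* and *Tek*), and the call of *Pgf* held in 22 of 24, of *Nrp1* in 15 of 25, of *Kdr* in 11 of 25 and of *Angpt1* in 14 of 24, which ranged from 0.31 to 1.11. All of these kept their direction. Values below are log2 fold changes with limma's adjusted p in parentheses. Among the 4 numbers shared by NL and LD, without a replicate block *Kdr* was 0.58 (0.0487), *Nrp1* 0.60 (0.0310) and *Vegfc* -0.0032 (0.996). With the replicate block *Kdr* was 0.58 (0.0878), *Nrp1* 0.60 (0.0567), *Vegfc* -0.0032 (0.995) and *Pgf* 1.28 (0.0134). With the closest pairs averaged *Kdr* was 0.66 (0.0414) and *Nrp1* 0.63 (0.0470). *Kdr* stayed at 0.70 with no filter (0.0135) and without the trend (0.0160). Without LD-4 and LD-6 *Kdr* was 0.44 (0.0221), *Nrp1* 0.52 (0.0245), *Vegfb* -0.024 and *Vegfc* -0.20. In the 6 retinas without *Xist* *Pgf* was 1.26 (0.0154), *Kdr* 0.42 (0.0944), *Nrp1* 0.63 (0.0250), *Vegfb* -0.0024 and *Vegfc* -0.034. Leaving out 1 retina gave 0.60 to 0.79 for *Kdr*, 0.64 to 0.78 for *Nrp1*, 1.19 to 1.36 for *Pgf* and -0.045 (without LD-4) to 0.23 for *Vegfc*. The number past 2-fold, 1 as reported, was 0 at a pseudocount of 1 (*Pgf* 0.53), the 1 FPKM filter, the replicate block and the retinas without *Xist*, and 3 with no minimum fold at either threshold. The number at an adjusted p under 0.01, 3 as reported, was 1 with pairs averaged, 1 with shared numbers and no block, 0 with the block, 1 without LD-4 and LD-6, 0 without *Xist* retinas and 1 to 3 with 1 retina left out. Fewer retinas entered the fits with pairs averaged, shared numbers and retinas left out. Without LD-4 and LD-6 the standard error went from 0.16 to 0.11 for *Kdr* and from 0.15 to 0.13 for *Nrp1*. What caused any of these changes was not tested. Across alternatives the number that rose was 0 to 4 of the endothelial, 1 to 5 of the tip cell, 1 to 9 of the receptor signalling, 0 to 3 of the HIF target and 0 to 2 of the oxygen sensing genes, and 3 to 8 HIF targets and 0 to 4 oxygen sensing genes fell. Scaling to TPM or without the factor per retina moved the median of all genes from -0.01 to 0.09 and 0.11 and *Hif1a* to -0.04 and -0.01. *Vegfa* was 0.37 (0.0153) and 0.40 (0.0144) there, but 0.17 (0.344) without LD-4 and LD-6 and 0.13 (0.581) in the retinas without *Xist*. *Flt1* was 0.07 and 0.02 in those fits, and *Tek* 0.09 and 0.07. The lowest depth was behind *Pgf*, *Vegfc*, *Angpt2* and *Tek*, at 15 to 126 reads per retina.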

Other observations

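Within groups, the endothelial gene with the highest r was not the same for every receptor, and whether the receptors differed was not tested. Over the 10 retinas, with the group means removed, *Tek* was closest to *Cdh5* among the 6 endothelial genes compared (Pearson's r 0.82), *Flt1* to *Pecam1* (0.93), and *Nrp1* to *Erg* and *Tie1* (each 0.84). *Kdr* was at 0.72 with *Tie1*, 0.71 with *Pecam1* and 0.45 with *Cldn5*. Of the ligands, *Vegfa* reached 0.84 with *Esam*, whereas *Pgf* was below 0 with all 6, down to -0.66 with *Tie1*. These values rest on 3 close pairs of retinas and carry no test.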
